A study of Mus musculus with 2 samples.

Results

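The RNF (RING finger) genes are a family by nomenclature, and many of them encode ubiquitin ligases. Here 85 protein-coding mouse genes whose symbol is Rnf followed by a number were read in 4T1 cells kept with PBS or with potassium oxalate. The set was taken by name from the 21911 genes of the table, which lists all 85. It was picked on a measured value, the rise of Rnf26, which was the largest of the table under the scale used here, so that the value of Rnf26 is a description and supports nothing. The annotation holds 86 symbols of this form, and the remaining one, Rnf170-ps, is a pseudogene that is not in the table. Some relatives of the family carry other names (Trim, March, Cbl, Znrf) and are given as separate lists.

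4T1 is a mouse mammary carcinoma line that metastasizes to the lung, and the study asked which genes of these cancer cells respond to oxalate. For each condition 5000000 cells were kept for 48 h, with PBS as the control or with potassium oxalate. The sample characteristics give the oxalate dose as 20 microM, whereas the treatment protocol gives 20 mM. The study's own text has the lower dose. There was 1 library per condition, so that no difference has a replicate check, no test between the conditions was possible, and each fold change compares 2 libraries.

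A RING domain folds around zinc ions held by cysteine and histidine residues and brings a ubiquitin-loaded conjugating enzyme to a substrate. In RBR (RING-between-RING) ligases the ubiquitin first passes to a cysteine of the ligase itself. Many RNF proteins span a membrane and act on the endoplasmic reticulum (ER), on endosomes or at the cell surface, whereas others work on chromatin or on signalling complexes. Rnf26, in the ER membrane, organizes the perinuclear positioning of endosomes and acts on the STING adaptor.

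The coding bases of the RING of the members with the 4 largest changes show what these genes share. Each stretch runs 5′ to 3′ on the coding strand from the first to the last zinc-binding codon. Capitals mark the 8 cysteine and histidine codons that the search for the RING pattern matched. In Rnf24 a cysteine codon left in small letters, tgt, is separated from CAT by aag only. That is the spacing marked between cysteine and histidine in Rnf26, Rnf185 and Rnf220. The capital TGC before cca in Rnf24 may therefore not be the zinc-binding codon, and tgt may be. Which of them binds zinc was not tested. The bases were read from GENCODE M21 transcripts (GRCm38).
Rnf26: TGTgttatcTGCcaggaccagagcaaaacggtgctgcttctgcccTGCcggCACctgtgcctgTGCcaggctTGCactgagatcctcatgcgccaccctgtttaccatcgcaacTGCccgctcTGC
Rnf185: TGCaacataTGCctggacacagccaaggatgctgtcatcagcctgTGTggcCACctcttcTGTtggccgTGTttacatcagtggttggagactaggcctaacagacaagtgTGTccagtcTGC
Rnf24: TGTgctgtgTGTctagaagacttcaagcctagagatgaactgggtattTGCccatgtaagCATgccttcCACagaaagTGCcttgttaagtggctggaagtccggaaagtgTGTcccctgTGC
Rnf220: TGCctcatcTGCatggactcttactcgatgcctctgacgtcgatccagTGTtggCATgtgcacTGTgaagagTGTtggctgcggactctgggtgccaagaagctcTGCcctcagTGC

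The Rnf26 stretch lies at chr9:44111714-44111839 on the minus strand, in 1 coding exon, and encodes residues 371 to 412 of 424, close to the end of the protein. The Rnf185 stretch spans chr11:3426637-3432461, minus strand, over 3 exons and encodes residues 75 to 115 of 228. That of Rnf24, chr2:131303535-131304328 on the minus strand, is spread over 2 exons, encodes residues 78 to 118 of 148, and has a histidine as the fifth zinc ligand, whereas Rnf26, Rnf185 and Rnf220 have a cysteine there. For Rnf220, chr4:117272349-117273261 on the minus strand over 3 exons, the RING also stands near the end, at residues 514 to 552 of 566.

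A complete coding sequence was found for 84 members, and 79 of them (94.0%) encode this spacing of 8 residues, against 1.26% of 21414 listed genes. The symbol stands for RING finger, so a high share follows from the choice by name. The listed genes include the members. Rnf181, Rnf216, Rnf41, Rnf144a and Rnf144b lack it as it was searched, and Rnf187 has no complete coding sequence in the annotation. The search read only the longest complete coding sequence of each gene. It required 2 residues within each of the first and last cysteine pairs, a first loop of 9 to 39 and a second loop of 4 to 48 residues. A lacking match therefore says only that this 1 sequence does not hold the searched spacing, and shorter coding transcripts were not searched. The encoded proteins span 113 residues for Rnf7, a partner of cullins, to 5152 for Rnf213, a giant ATPase and ligase, with a median of 363.5. A hydrophobic segment (19 residues with a mean hydropathy of at least 1.6 on the Kyte-Doolittle scale) was found in 38 members (45.2%), close to the 42.9% of all listed genes. Rnf26 has 7 such segments, Rnf185 and Rnf24 have 1 each, and Rnf220 has 0.

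Levels are given as FPKM, in which fragments are divided by transcript length and by the library's total, so that genes can be compared. The depth, read from the steps between low values, was about 56800000 reads for PBS and 36400000 for oxalate. The FPKM values summed to 567163 and 559026, and 13475 and 13050 genes were above 0. Of the markers of the line, all 6 epithelial genes were detected, with summed FPKM of 2056.55 for PBS and 2117.56 for oxalate. The 5 leukocyte genes were at 0 in both libraries, the endothelial genes summed to 0.08 and 0.09, and the fibroblast genes to 2.19 and 2.26.

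A mean FPKM of at least 1 over both libraries was reached by 59 of the 85 members (69.4%), against 46.9% of all listed genes and 47.1% of the listed protein-coding genes. Each library had 71 members above 0. Another 13 members were at 0 in both libraries, and 13 were above 0 but under the mean of 1. Just inside this limit were Rnf183 (1.41 with PBS and 0.70 with oxalate) and Rnf125 (0.92 and 1.23), and just outside was Rnf122 (0.93 and 1.00). By mean FPKM, 5 members stood above 100, 13 from 30 to 100, 22 from 10 to 30 and 19 from 1 to 10. Among the 59 the means spanned 177-fold.

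The most abundant member was Rnf187, known as a coactivator of AP-1, at 192.90 FPKM with PBS and 179.85 with oxalate. Rnf126, which ubiquitinates mislocalized membrane proteins bound to BAG6, stood at 157.36 and 164.64. Rnf19b, an RBR ligase first studied in natural killer cells, had 120.44 and 124.15. Rnf10 stood at 105.95 and 100.37, and Rnf4, a ligase for SUMO-modified proteins, at 99.27 and 101.01. These 5 members kept their order in both libraries except that Rnf4 stood just above Rnf10 with oxalate, and they made up 39.3% of the summed FPKM of the family with PBS and 37.1% with oxalate.

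The summed FPKM of the 85 members was 1719.65 with PBS and 1806.44 with oxalate. Of the difference of 86.79, Rnf26 alone gave 49.13, and without it the sums were 1719.31 and 1756.97. As a share of all FPKM the family held 0.303% with PBS and 0.323% with oxalate, or 0.303% and 0.314% without Rnf26. The median member past the mean of 1 stood at 15.84 and 17.19 FPKM, next to 16.51 and 16.54 for all genes past it.

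**Figure D1:**
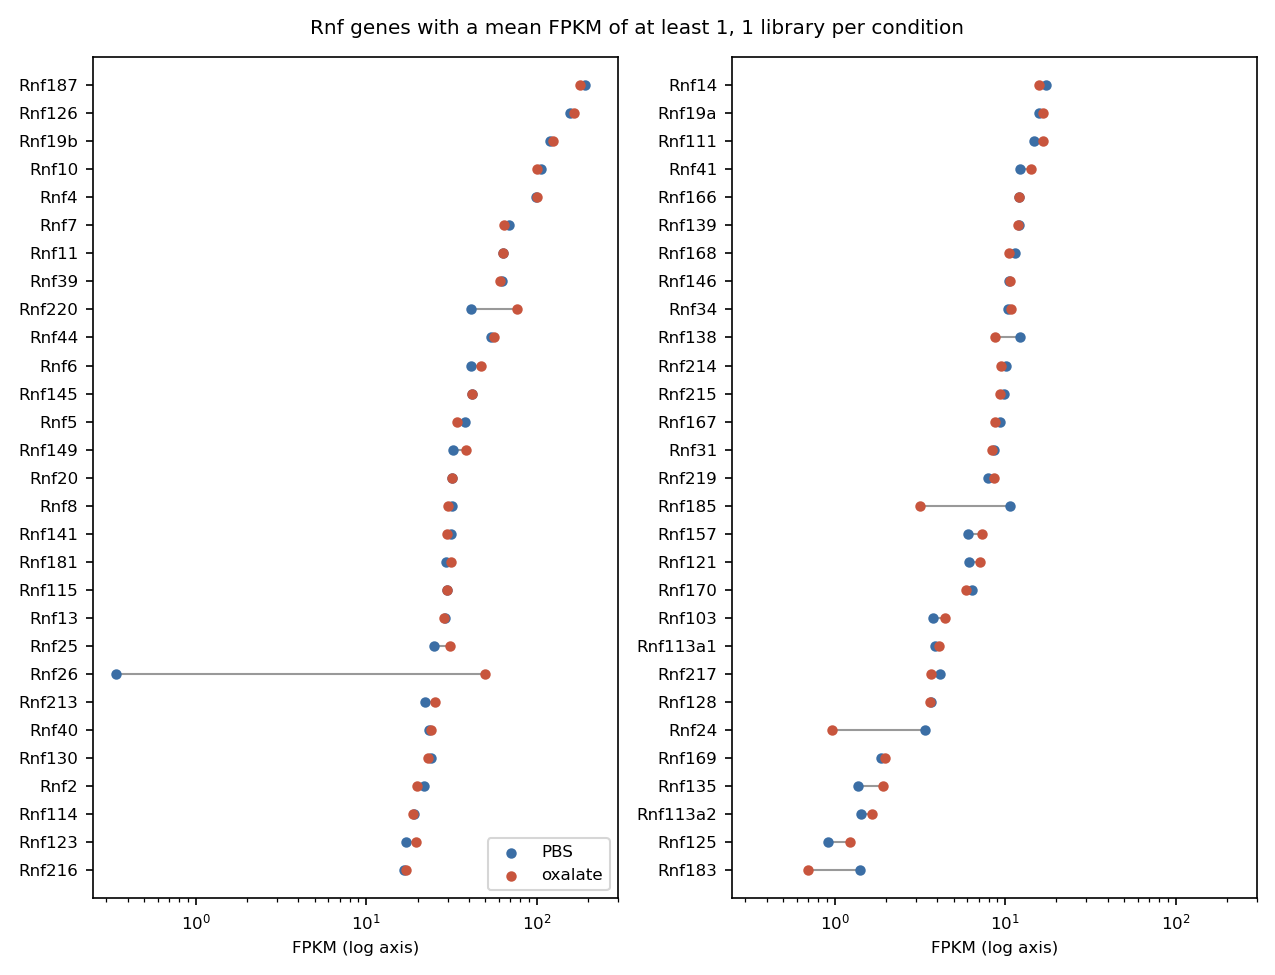
FPKM (log axis) of 58 Rnf genes past a mean of 1, ordered by their mean, with 1 point per library (PBS blue, oxalate red) and a line joining the pair. Most pairs nearly coincide, and the longest lines belong to Rnf26 (0.34 and 49.47), Rnf185 (10.65 and 3.16) and Rnf24 (3.41 and 0.97).

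The change was measured as log2((oxalate + 1)/(PBS + 1)), in which the added 1 shrinks the change of genes at low levels. Here "changed" means past 2-fold on this scale. By this rule 3 of the 59 members changed, Rnf26 upward and Rnf185 and Rnf24 downward, beside 0.653% of the 10267 genes past the mean of 1 (0.292% raised and 0.36% lowered). The choice of the family used this comparison, so nothing is read from the counts. At 1.5-fold Rnf220 joined them, giving 4 members beside 1.99% of all genes, and at 1.2-fold 9 members beside 9.95%. At 4-fold 1 member, Rnf26, was left beside 0.0584%. The other 50 members (84.7%) were within 1.2-fold, as were 90.1% of all genes. The median log2 fold change was 0.0057 for the members and 0.0031 for all genes. Oxalate was the higher library for 33 members (55.9%) and the lower for 26, and 50.6% of all genes were higher. Without regard to sign the median change was 0.093 for the members and 0.087 for all genes.

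**Figure D2:**
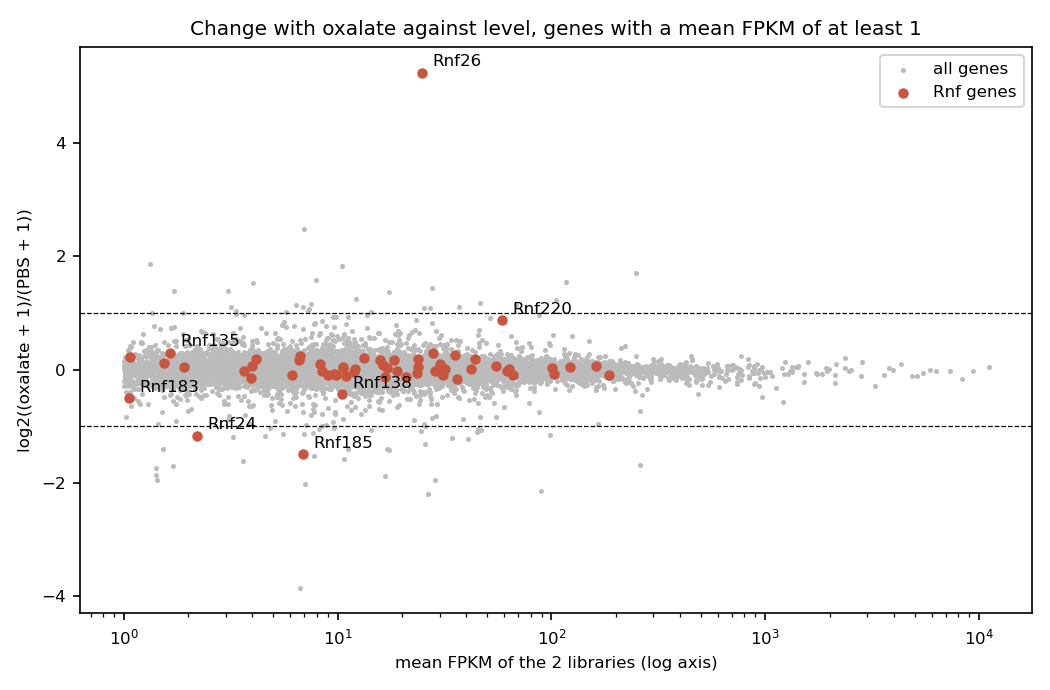
Log2 fold change of oxalate against PBS over the mean FPKM (log axis) for genes with a mean of at least 1 (grey) and 58 Rnf genes among them (red). Dashed lines stand at 2-fold, and Rnf26 at 5.24 lies above every other gene, with Rnf185 at -1.49 and Rnf24 at -1.16 below the lower line.

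Rnf26 (ENSMUSG00000053128, chr9:44095631-44113517, minus strand) was listed at 0.34 FPKM with PBS and 49.47 with oxalate. With PBS it ranked 64th of the 85 members and lay above 49.6% of all listed genes, and with oxalate it ranked 11th and lay above 90.2%. The log2 fold change was 5.24. The next largest rises of the table were Sox12 at 2.47 and Gm28051 at 1.87. From its coding transcripts the values correspond to about 44 reads with PBS and 4077 with oxalate. Without the added 1 the log2 ratio was 7.18. The exact 95% interval of that ratio, which covers counting error only, was 6.75 to 7.64. PCR copies are not independent molecules, so the true counting error may be wider than such an interval. Its width also depends on the transcript length used: with the longest coding transcript it was 6.78 to 7.59. Rnf26 ranked first by rise with a pseudocount of 1 or 0.1, and with 0.001 it ranked 37th over all listed genes and 2nd among those with a mean of at least 1.

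The annotation gives Rnf26 6 transcripts. The 3 coding ones measure 2724, 2257 and 1804 bases, with the longest in 1 exon and the others in 2 exons each. A pair of transcripts marked for nonsense-mediated decay, 2833 and 809 bases, runs on to exons far downstream. A processed transcript of 521 bases lies wholly downstream of the coding ones. One listed FPKM value per gene cannot say which of these was read.

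Rnf26 shares bases with other genes. The predicted protein-coding gene Gm49380, on the same strand and with the same start region, covers 2059 of the 2724 bases of the Rnf26 coding transcripts (75.6%). Gm49380 was listed at 0.24 FPKM with PBS and 0.04 with oxalate, about 40 and 4 reads, so that the gene sharing these bases was lower with oxalate, while Rnf26 was higher. How the authors divided reads between the 2 genes is not given in the sources used here, and its part in the values was not tested. On the opposite strand, Gm26737 overlaps 313 and Gm47327 262 of the coding transcript bases. Neither is listed in the table, and whether the libraries kept strand is not stated. Mfrp (0.05 with PBS, 0.07 with oxalate) and C1qtnf5 (0 in both) lie within the span of the long Rnf26 transcripts, on the opposite strand.

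Of the other listed genes within 50 kb, 0 passed 1.2-fold on the scale with a pseudocount of 1. Usp2, a deubiquitinase gene next to the far end of the long Rnf26 transcripts, stood at 0.57 and 0.76 FPKM, the adhesion gene Mcam at 3.36 and 3.83, and Cbl, itself a RING ligase, at 26.76 and 28.79. Thy1, a surface glycoprotein gene, was at 0 in both libraries. Gm39325, Gm20444 and Gm10687 are not in the table.

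**Figure D3:**
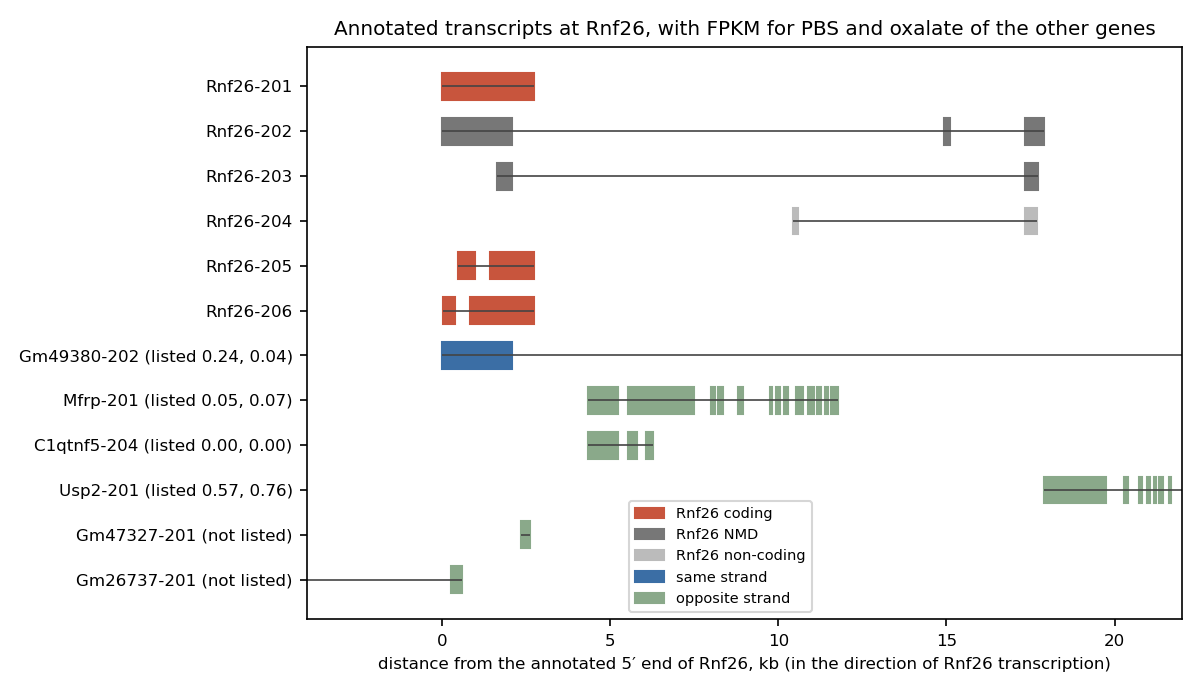
Annotated transcripts at Rnf26, as distance in kb from the annotated 5′ end of the gene in its own direction, with boxes for exons. All 6 Rnf26 transcripts are drawn, and of each other gene the longest, with its FPKM for PBS and oxalate. The first exon of Gm49380 (0.24 and 0.04) covers the start of the coding Rnf26 transcripts.

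Rnf185 (ENSMUSG00000020448, chr11:3415982-3452363, minus strand), which works in ER-associated degradation, was the member with the largest fall. It was listed at 10.65 FPKM with PBS and 3.16 with oxalate, a log2 fold change of -1.49. The estimated reads were 1721 and 328. Their interval was -1.93 to -1.58, around the log2 ratio without the pseudocount, -1.75. Rnf185 has 2 coding transcripts of nearly equal length (2906 and 2787 bases), and no listed gene overlaps it. Its closest relative, Rnf5, also an ER membrane ligase, stood at 38.21 and 34.06 FPKM (-0.16), a smaller difference in the same direction.

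Rnf24 (ENSMUSG00000048911, chr2:131298064-131352892, minus strand), a small membrane protein that binds TRPC channels, stood at 3.41 FPKM with PBS and 0.97 with oxalate, a log2 fold change of -1.16. About 1145 and 209 reads stand behind these values, and their interval was -2.03 to -1.60, below the value with the pseudocount because the gene is low. Its 3 coding transcripts are 5833 to 5978 bases long. On the opposite strand Pank2, a pantothenate kinase gene, shares 1125 exon bases with Rnf24, and stood at 21.12 and 21.61 FPKM. The overlapping gene thus differed little between the libraries.

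Rnf220 (ENSMUSG00000028677, chr4:117271463-117497052, minus strand), a ligase of Wnt and hedgehog signalling, stood at 41.28 FPKM with PBS and 76.70 with oxalate. The log2 fold change of 0.88 was just under the 2-fold limit (the FPKM ratio without the pseudocount was 1.86), and the 4337 and 5174 estimated reads gave an interval of 0.84 to 0.95. Its 5 coding transcripts differ in length by 3.98-fold, so the read estimate depends on which were present. No listed gene overlaps Rnf220.

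Other members among the 10 largest changes were below 1.5-fold with the pseudocount of 1. Rnf183, induced in ER stress, stood at 1.41 and 0.70 FPKM (-0.50, about 91 and 29 reads, interval -1.67 to -0.39). Its log2 ratio without the pseudocount was -1.01, past 2-fold. Rnf138, which acts on DNA end resection, stood at 12.17 and 8.75 (-0.43). Rnf135, a ligase for RIG-I, stood at 1.37 and 1.92 (0.30), Rnf25 at 25.00 and 30.84 (0.29) and Rnf149 at 32.37 and 38.71 (0.25). Each of these 5 had an interval of its estimated reads that left out 0.

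The counting interval left out 0 for 31 of the 59 members, 18 higher and 13 lower with oxalate. Over the 10234 genes with a coding transcript past the mean of 1 the share was 48.9%. At these depths an interval is narrow for abundant genes: that of Rnf126, with 14638 and 9834 estimated reads and a log2 fold change of 0.06, was 0.028 to 0.10. A difference that passes counting error may still lie within the spread between cultures, which was not measured.

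**Figure D4:**
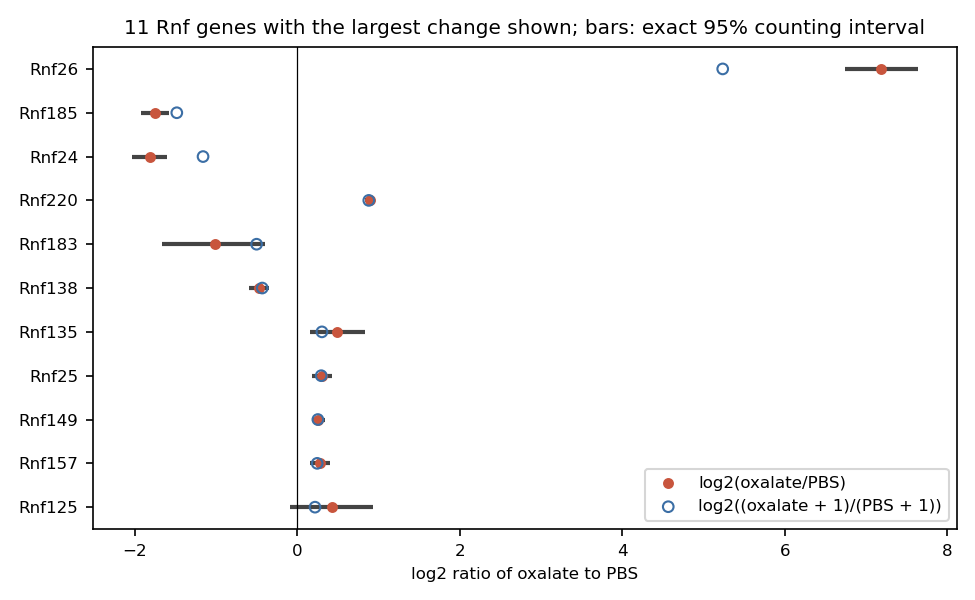
Log2 ratio of oxalate to PBS for 11 of the Rnf genes with the largest change, without pseudocount (red) and with a pseudocount of 1 (blue ring), and the exact 95% interval of the estimated reads (bars, counting error only). The bars of Rnf26 (6.75 to 7.64), Rnf185 (-1.93 to -1.58) and Rnf24 (-2.03 to -1.60) stand clear of 0, and that of Rnf125 (-0.09 to 0.93) spans it.

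By role, the ER and endosomal membrane ligases included Rnf26, on whose rise the family was picked, and Rnf185 and Rnf24, or 3 of 10 past the mean of 1 beside 0.653% of all genes. The roles were given with earlier results of these data known, so nothing is read from that count. The group has 14 genes in all, and of the 10, 4 were higher and 6 lower with oxalate, with a median log2 fold change of -0.067 and a range of -1.49 to 5.24. By mean FPKM Rnf145, a sterol-responsive ligase, was the most abundant at 41.88 and 42.00, followed by Rnf5, although Rnf26 stood above both with oxalate. Rnf139, also sterol-regulated, stood at 12.13 and 11.83, Rnf121 at 6.16 and 7.08, Rnf170, which degrades IP3 receptors, at 6.40 and 5.90, and Rnf103 at 3.80 and 4.47. Rnf122 and Rnf152 were under the mean of 1, and Rnf182 and Rnf186 were at 0. Across roles, the 23 members past the mean of 1 with a hydrophobic segment had a median of -0.032, and the 35 without one had a median of 0.049. The 3 changed genes, Rnf26 among them, are in the first set. Of all genes past the mean of 1, 0.670% of 3135 with a segment and 0.651% of 7064 without one changed 2-fold, with medians of 0.020 and -0.0041.

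Of the 10 ligases with a protease-associated domain, which sort cargo in endosomes and lysosomes, 6 were past the mean of 1, 1 higher and 5 lower, with a median of -0.039. Rnf149 was the most abundant and the most changed, and Rnf13 stood at 28.81 and 28.43 FPKM. The others past it were Rnf130, Rnf215, Rnf167 and Rnf128, all between -0.09 and -0.02. Rnf43, which removes Wnt receptors from the surface, stood at 0.29 and 0.37, and Rnf133, Rnf148 and Rnf150 were at 0.

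The RBR ligases numbered 8, with 6 past the mean of 1, 3 higher and 3 lower, and a range of -0.14 to 0.08. By mean FPKM Rnf19b led them, followed by Rnf216, a ligase of innate signalling, at 16.74 and 17.19. Rnf14, above Rnf216 with PBS only, stood at 17.36 and 15.80, Rnf19a at 15.84 and 16.77, and Rnf31, the catalytic subunit of the linear ubiquitin complex LUBAC, at 8.58 and 8.37. Rnf217 had the lowest change of the group at 4.18 and 3.70 (-0.14). Rnf144b was under the mean of 1, and Rnf144a was at 0.

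All 10 chromatin and DNA damage ligases were past the mean of 1, with 6 higher, 4 lower and a median of 0.015. Rnf4 led them, and Rnf6 stood second at 40.90 and 46.82 FPKM. Rnf20 (31.66 and 31.79) and Rnf40 (23.29 and 24.15), which together ubiquitinate histone H2B, had log2 fold changes of 0.0057 and 0.050. Rnf2 (21.94 and 19.92), the catalytic ligase of Polycomb repressive complex 1, stood at -0.13, and the double-strand break ligases Rnf8 (31.95 and 30.03) and Rnf168 (11.48 and 10.48) at -0.09 and -0.12. The values of Rnf169 (1.87 and 1.97) and Rnf111 (14.77 and 16.66) were 0.05 and 0.16. Rnf138 had the largest change of the group.

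The 15 members of the innate immunity and signalling group were likewise all past the mean of 1, with 12 higher and 3 lower and a median of 0.065. By the mean, Rnf126 and Rnf7 (68.46 and 64.11 FPKM) led them, and Rnf220, which had the largest change, stood above Rnf7 with oxalate. Rnf213 (22.05 and 25.40), Rnf41 (12.26 and 14.26) and Rnf123 (17.16 and 19.50) were between 0.17 and 0.20 on the log2 fold change scale. Rnf11, Rnf115, Rnf114, Rnf166, Rnf146 and Rnf34 were each within 0.06 of 0.

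Members grouped here under other tissues were mostly under the mean of 1. Of 6 germ line genes only Rnf141 was past the mean of 1, at 31.59 and 29.90 FPKM. Rnf32 (0.52 and 0.44) and Rnf151 (0.55 and 0.28) were low, and Rnf17, Rnf212 and Rnf212b, which act in spermatogenesis and meiotic crossing-over, were at 0. Rnf151 had the largest difference of the group, -0.28, on about 30 and 10 reads. Of 5 nervous system and muscle genes, Rnf157 stood at 6.04 and 7.33, Rnf208 at 0.11 and 0.05, Rnf165 at 0.03 and 0.04, Rnf207 at 0 and 0.03, and Rnf112 at 0. The group labelled RNA processing held 3 members, Rnf10 and the spliceosomal Rnf113a1 (3.89 and 4.10) and Rnf113a2 (1.43 and 1.65). For Rnf10 this is only the label it was grouped under, and a part of it in RNA processing was not tested. Rnf113a1 and Rnf113a2 are close copies, so reads could be split between them.

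No role was given to 14 members, of which 7 were past the mean of 1. Among these were Rnf187, Rnf39 (62.42 and 61.22 FPKM), Rnf44 (53.89 and 56.21), Rnf181, Rnf214 and Rnf219 (7.93 and 8.61), whose changes ran from -0.10 to 0.11. Under it were Rnf223, Rnf225, Rnf224 and Rnf227, and Rnf138rt1, Rnf180 and Rnf222 were at 0.

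**Figure D5:**
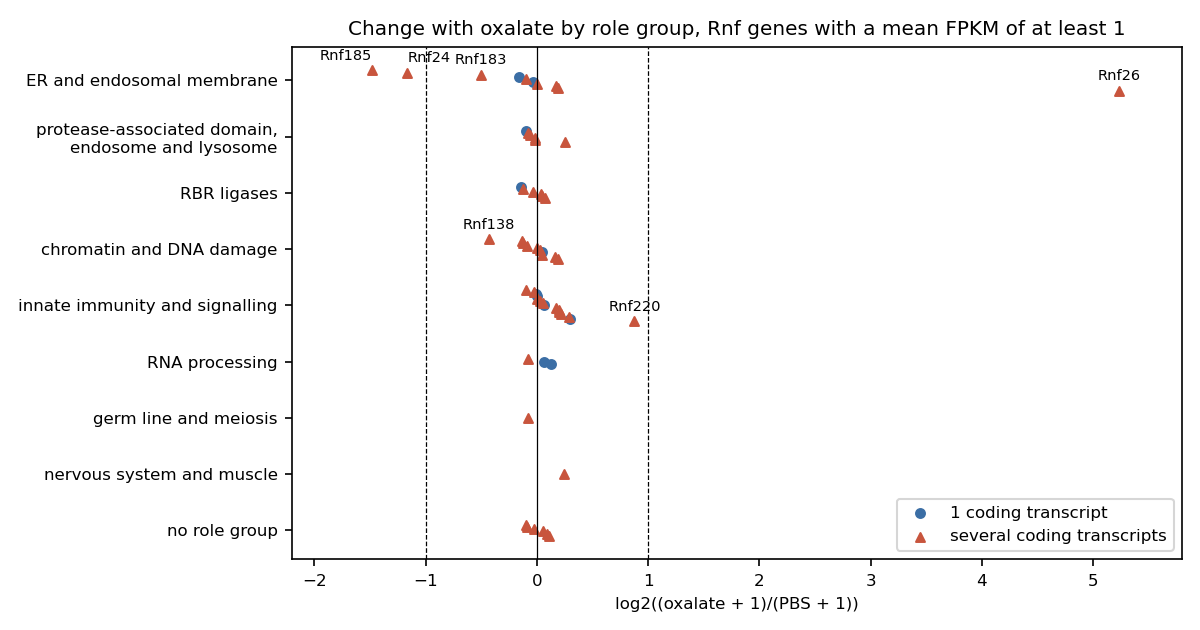
Log2 fold change of oxalate against PBS for 58 Rnf genes past a mean FPKM of 1, in rows by role group, with circles for genes with 1 coding transcript and triangles for those with several. Dashed lines stand at 2-fold. The 3 genes beyond them (Rnf26, Rnf185 and Rnf24) are in the ER and endosomal membrane row and have several coding transcripts.

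Whether FPKM of a gene rests on 1 or several transcripts was set beside the changes. The 11 members with 1 coding transcript ranged from -0.16 (Rnf5) to 0.30 (Rnf135), and the 3 changed members were among the 48 with several. Of 2613 genes of the table with 1 coding transcript 0.153% changed 2-fold, against 0.827% of 7621 with several. The way the authors combined transcripts was not stated, and its part in the changes was not tested.

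Among the 59 members, 19 overlap another listed gene and 16 share exon bases with one. Beside Rnf26, Rnf146 shares 3129 bases (70.2% of its exons) with Echdc1 on the opposite strand. Rnf146, which acts on Axin in Wnt signalling, stood at 10.51 and 10.71 FPKM and Echdc1 at 8.80 and 8.93. Rnf114 shares 129 bases with Spata2, an adaptor of the LUBAC deubiquitinase Cyld, on the opposite strand. Spata2 stood at 6.81 and 17.52 while Rnf114 stood at 19.09 and 18.70. Rnf34 shares 627 bases with Kdm2b, and stood at 10.35 and 10.78 while Kdm2b stood at 14.87 and 23.48. In both pairs the higher partner value with oxalate had no counterpart in the Rnf gene.

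Rnf24, given above, changed while its partner Pank2 did not pass 1.2-fold. In the pairs that follow neither gene passed 1.5-fold among partners past the mean of 1. Rnf214 (10.15 and 9.46) overlaps Bace1 and Pcsk7, Rnf139 Tatdn1, Rnf123 Gmppb, Amigo3 and Mst1, Rnf10 Pop5, Rnf141 Ampd3, Rnf181 (29.23 and 31.26) Tmem150a, Rnf2 Trmt1l, Rnf215 (9.87 and 9.30) Ccdc157 and Rnf167 (9.38 and 8.73) Slc25a11. Rnf31 overlaps Irf9 on its own strand by 123 bases. The partners Fgf22 of Rnf126, Bbof1 of Rnf113a2, Gm20388 of Rnf166 (12.02 and 12.05) and Gm45692 of Rnf170 were under 0.5 FPKM in both libraries.

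Of the genes of proteins known to act with Rnf26, all but Ube2j1 were within 1.2-fold between the libraries. All 12 listed partners were past the mean of 1 and 0 changed 2-fold, with 6 higher, 6 lower and a median log2 fold change of 0.00038. Ube2j1, the ER conjugating enzyme of Rnf26, had the lowest value at 43.59 and 33.74 FPKM (-0.36), and Tmed1 the highest at 17.15 and 20.17 (0.22). The endosomal adaptors Sqstm1 (321.42 and 320.57), Tollip (32.66 and 33.59), Eps15 (36.86 and 36.98) and Tax1bp1 (101.53 and 99.20) and the deubiquitinase Usp15 (23.74 and 23.23) were within 0.04. Tmem173, which encodes STING, stood at 7.01 and 7.44. The other ER membrane partners Tmem43 (18.14 and 18.30), Tmem33 (24.04 and 23.12) and Endod1 (62.35 and 60.33), and the filament gene Vim (74.58 and 75.30), were within 0.06.

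Over all 8 related lists 159 of 181 listed genes were past the mean of 1, and 1 was raised and 0 lowered at 2-fold (0.629%, beside 0.653% of all genes), with a median of 0.012. The raised gene was Spata2 of the LUBAC list (1.25). Kdm2b (0.63) of Polycomb repressive complex 1 and Trim25 of the RIG-I pathway (8.74 and 14.62 FPKM, 0.68) passed 1.5-fold. March8, a membrane ligase of the other RING list, stood at 34.39 and 16.86 (-0.99), just inside 2-fold. The ER-associated degradation list had 9 higher and 11 lower of 20, from -0.28 (Os9) to 0.31 (Syvn1), and 0 changed. The double-strand break list (5 higher and 8 lower of 13) and the Wnt receptor list (9 higher and 4 lower of 13) likewise held 0. LUBAC had 3 higher and 2 lower of 5, Polycomb repressive complex 1 had 11 higher and 7 lower of 18, the RIG-I pathway 7 higher and 2 lower of 10, and the other RING ligases 40 higher and 37 lower of 78. Beyond the family, 126 genes with the RING pattern were past the mean of 1, of which Mul1 was raised (1.85 and 4.87 FPKM) and Cbll1 lowered (16.75 and 5.70), or 1.59%, with a median of 0.0021.

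Silent and active members were set beside the CpG count of their start regions, counted as CG in RefSeq windows (GRCm38) of 250 bases before to 50 after the start. A window was found for 66 members by symbol. Only the first window of each symbol was kept, and whether it holds the start used in these cells was not tested. Past the mean of 1 the 47 members had a median of 23 CpG and 89.4% held at least 10, against 22 CpG and 88.0% of 8158 listed genes past it. Under the mean of 1 the 19 members had a median of 10 and 52.6% held at least 10, against 5 and 30.6% of 8322 listed genes. The counts overlapped, with 1 CpG for the active Rnf20. Among the silent members with a window, Rnf144a had 25, Rnf180 and Rnf212 22 each, Rnf212b 18 and Rnf138rt1 12. The others of them were Rnf182 with 9, Rnf186 with 7, Rnf222 with 3, Rnf133 with 1 and Rnf148 with 0. Rnf26 had 20, Rnf24 30, Rnf185 6 and Rnf220 2. The 250 bases before the start follow for Rnf126 and Rnf148, with each CG in capitals. Rnf126 (chr10:79766953-79767202, minus strand) is the most abundant member whose window holds no annotated exon. Rnf148 (chr6:23655137-23655386, minus strand) was picked as the silent member with the fewest CpG, 0, so the pair does not stand for the other members.
Rnf126: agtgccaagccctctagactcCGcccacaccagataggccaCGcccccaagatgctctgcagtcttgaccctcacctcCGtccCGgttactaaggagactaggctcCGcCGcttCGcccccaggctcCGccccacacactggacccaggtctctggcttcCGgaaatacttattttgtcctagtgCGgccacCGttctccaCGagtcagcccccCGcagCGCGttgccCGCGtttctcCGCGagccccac
Rnf148: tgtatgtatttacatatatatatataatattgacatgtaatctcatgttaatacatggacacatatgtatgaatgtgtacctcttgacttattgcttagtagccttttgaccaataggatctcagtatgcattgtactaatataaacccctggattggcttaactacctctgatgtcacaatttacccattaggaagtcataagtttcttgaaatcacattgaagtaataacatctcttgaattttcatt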

How the data were processed

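RNA of 2 samples, 4T1 cells with PBS and with potassium oxalate, was selected on oligo(dT) beads, primed at random and sequenced. The authors deposited FPKM values, rounded to 2 decimals, for 21911 Ensembl identifiers. Submitters' processing notes name TopHat2 2.1.1 and Bowtie2 2.2.8, with no role. The quantifier, build and annotation are not given in the sources used here. Symbols, transcripts and overlaps were taken from GENCODE M21 (GRCm38), which gave 21848 identifiers a symbol and may not be the annotation the authors used.

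The depth was fitted on low genes with 1 transcript of at most 1 kb. FPKM times length fell within 0.2 of a whole read for 98.2% of 110 PBS and 99.2% of 126 oxalate values. Reads of a gene were estimated from the mean length of its coding transcripts, and exact (Clopper-Pearson) 95% intervals of the ratio were computed. No count test was run, since 2 decimals hide single reads in longer genes. FPKM changes used a pseudocount of 1 and a mean of at least 1. Scripts were tested on simulated data. Other pseudocounts, filters, thresholds and lengths were alternatives.

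The members, roles and lists were chosen with earlier results of these data known. Named were Rnf26, the 10 largest changes, the 5 highest members, the 2 highest and the most changed of each role, overlapping pairs, genes within 50 kb of Rnf26, the Rnf26 partners, and list genes changed 1.5-fold. Rnf217 was moved to the RBR role, and promoters, Mul1, Cbll1 and members beyond this rule were named, after their values were seen. Values of 1 such gene are not reported here. Analyses ran in Python 3.11.15 with scipy 1.17.1, numpy 2.4.6, Biopython 1.88, pandas 2.3.3 and, for plots, matplotlib 3.10.9.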

Additional observations from a re-analysis of the deposited data

How the results depend on the processing

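No paired analysis was possible because there is 1 library per condition, and for the same reason no library could be left out. The count of 3 changed members (1 raised, 2 lowered) stayed at 3 with a pseudocount of 0.1, after rescaling to a median of 0 over all genes and without a filter, and was 4 with a pseudocount of 0.001 (1 raised and 3 lowered). The member added with 0.001 was Rnf183, at -1.01. At a mean of at least 5 the count was 2, with 1 lowered. Among the 11 members with 1 coding transcript it was 0, with 0 raised and 0 lowered, and among the 40 that overlap no listed gene it was 1, with 0 raised and 1 lowered, since Rnf26 and Rnf24 overlap one. Without Rnf26 it was 2, with 0 raised. A threshold of 1.5-fold gave 4 with 2 raised, and of 4-fold 1 with 0 lowered. Of the genes of the related lists 1 changed 2-fold, and 2 did with a pseudocount of 0.1. The median log2 fold change of the members stayed between 0 and 0.040.

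Of 41 named members, 3 moved by more than the half-width of their counting interval, all with smaller pseudocounts: Rnf26 to 6.82 and 7.18, Rnf185 to -1.72 and -1.75, and Rnf24 to -1.71 and -1.81 at 0.1 and 0.001. No called value changed sign, but none could: a pseudocount keeps the sign, and the rescaling shift of 0.0031 was far below 2-fold. With the longest or shortest coding transcript in place of the mean length, 8 of 82 read estimates changed whether the interval left out 0, none of them of Rnf26, Rnf185, Rnf24 or Rnf220.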
